A study of Homo sapiens with 4 samples.

Results

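Imprinted genes were examined in T24 cells, a human bladder carcinoma line, with and without ectopic TET1-CD. The set was chosen by name, from 35 symbols of genes that are imprinted or have been reported to be imprinted in some tissue. Of these, 34 symbols were found, and they matched 35 of the 57879 genes listed, because SNURF stood under 2 gene identifiers. MCTS2P was not found under that symbol. The gene listed as RP3-324O17.4, whose identifier the reference table pairs with MCTS2, held 66 and 35 counts in control and 47 and 54 in TET1-CD, and its log2 fold change was 0.03 (SE 0.27, edgeR adjusted p = 0.96).

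RNAseq had been performed on 2 control libraries, from T24 cells stably carrying the empty lentiviral vector (EV), and 2 TET1-CD libraries, from T24 cells stably carrying FLAG-tagged TET1-CD, the catalytic domain of the 5-methylcytosine dioxygenase TET1. Both lines had been selected with puromycin and were grown in RPMI with fetal calf serum, and T24 was chosen in the study as a line with low endogenous TET1. Nothing in the labels says that the 2 libraries of a group came from separate cultures, so the p-values measure the spread between these libraries, which may be technical. The domain was expressed from a vector in a single cancer cell line, and the files do not separate parental alleles, so a change in level cannot be assigned to the maternal or the paternal copy.

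Imprinted genes are expressed mainly from the copy inherited from 1 parent. The choice is set by differentially methylated regions, stretches of CpG-rich DNA that carry 5-methylcytosine on 1 parental copy and are maintained through cell division by DNMT1, UHRF1 and the zinc finger protein ZFP57 with its partners. TET enzymes oxidise 5-methylcytosine to 5-hydroxymethylcytosine and take part in the erasure of imprints in the germline, and loss of imprinting at the IGF2-H19 locus is known from several tumors. DNA methylation was not measured in these libraries.

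The values below are the deposited estimated counts, which are fragments assigned to each transcript, summed per gene and rounded. The libraries held 17442143 to 20295266 fragments in total. TET1 itself read 111 and 83 counts in control and 2939 and 3310 in TET1-CD, a log2 fold change of 5.02 (SE 0.08, edgeR adjusted p = 4.91e-10), in the direction the labels give. The epithelial keratins KRT7, KRT8 and KRT18 stood at 10759 to 22638 counts in every library, while the 4 uroplakin genes listed, which mark the urothelial surface, held 0 to 6 counts and KRT5 held 0. The 4 blood cell markers held 0 to 3 counts per library, and the endothelial markers CDH5 and VWF held 9 to 22 and 0 to 6. Of the 4 fibroblast markers, DCN and COL1A2 held 0 to 3 counts and PDGFRB 13 to 25, and COL1A1 read 88 and 70 in control and 266 and 314 in TET1-CD. GATA3, a urothelial transcription factor gene, read 19 and 19 against 46 and 44, and KRT19 read 103 and 66 against 165 and 169. Whether the cells behind these markers had a part in the results was not tested.

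H19 and MEST rose in TET1-CD cells, and the sequences around the MEST starts are shown first, with those of a further gene that rose and of a silent one, because CG dinucleotides are the main sites of DNA methylation in human cells. Each window runs from 250 bases before a transcript start to 50 after it, 5′ to 3′ on the strand of the gene, with every CG dinucleotide in capitals. The MEST and MEG3 windows and that of FAM50B, an imprinted gene outside the set, are RefSeq promoter windows on GRCh38.p14, plus strand. The 2 MEST windows are chr7:130491835-130492134, at the start of ENST00000223215, and chr7:130485925-130486224, the most upstream of 5 RefSeq windows for this gene, FAM50B is chr6:3849123-3849422, and MEG3, shown as a start that gave no fragment in any library, is chr14:100825858-100826157.
MEST downstream start: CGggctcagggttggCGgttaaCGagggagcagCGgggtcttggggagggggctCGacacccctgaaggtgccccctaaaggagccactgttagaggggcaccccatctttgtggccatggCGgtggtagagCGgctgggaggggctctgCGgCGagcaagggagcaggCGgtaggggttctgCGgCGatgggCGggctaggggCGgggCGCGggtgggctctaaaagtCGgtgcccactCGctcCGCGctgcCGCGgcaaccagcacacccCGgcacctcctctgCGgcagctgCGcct
MEST upstream start: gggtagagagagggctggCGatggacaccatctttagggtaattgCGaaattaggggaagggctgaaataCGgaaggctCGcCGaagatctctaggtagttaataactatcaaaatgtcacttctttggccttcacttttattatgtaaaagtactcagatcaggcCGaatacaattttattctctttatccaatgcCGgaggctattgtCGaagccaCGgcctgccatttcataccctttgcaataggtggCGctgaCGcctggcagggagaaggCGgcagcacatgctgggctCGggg
FAM50B: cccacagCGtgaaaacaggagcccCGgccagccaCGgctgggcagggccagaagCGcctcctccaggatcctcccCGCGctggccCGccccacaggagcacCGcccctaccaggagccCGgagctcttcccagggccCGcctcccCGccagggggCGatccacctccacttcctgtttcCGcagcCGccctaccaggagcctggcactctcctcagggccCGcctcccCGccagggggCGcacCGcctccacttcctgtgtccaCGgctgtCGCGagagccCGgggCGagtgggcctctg
MEG3: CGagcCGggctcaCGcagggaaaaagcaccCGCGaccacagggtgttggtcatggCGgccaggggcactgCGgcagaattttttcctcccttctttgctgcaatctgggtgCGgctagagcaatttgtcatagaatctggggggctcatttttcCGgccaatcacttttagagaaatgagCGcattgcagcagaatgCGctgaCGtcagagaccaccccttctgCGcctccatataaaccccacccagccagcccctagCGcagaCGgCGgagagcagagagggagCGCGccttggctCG

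These windows held 25 CG dinucleotides for the downstream and 13 for the upstream MEST start, 23 for FAM50B and 19 for MEG3. The 3 MEST windows not shown held 16, 22 and 22, the other MEG3 windows 17 and 18, and the RefSeq window of H19, which is not shown, held 6. Over the 35116 RefSeq windows of 27305 genes the median was 14, with quartiles at 4 and 28. The windows of these genes thus lay on both sides of the middle of all promoters, and the start without any fragment was above it. The H19 window has its start at 2022496 (GRCh37), and no counted H19 transcript with a known start began there. ENST00000414790 begins at 2019073, so the values of the H19 window do not describe that start. The hexamer TGCCGC, which is contained in the recognition sequence of ZFP57 and holds a CG itself, was found on either strand in 16.7% of all windows. It occurred in the downstream MEST window 3 times, in the upstream MEST window and the MEG3 window 1 time each, and not in the FAM50B window or the RefSeq window of H19.

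The set split into genes that control T24 cells expressed and genes that they did not. A gene was taken as detected where both control libraries held more than 3 counts, and as not detected where both held 3 or fewer. By this rule 23 of the 35 gene identifiers were detected and 12 were not. The most abundant detected member was GNAS, which encodes the stimulatory G protein alpha subunit, at an FPKM (fragments scaled to transcript length and library size, a level per length) of 552 ± 25.2 (SD, n = 2) in control, followed by TFPI2 at 291 ± 29.6 and PHLDA2 at 83.5 ± 2.77. At the lower end, NNAT stood at an FPKM of 0.74 ± 0.113, IGF2 at 0.38 ± 0.325, H19 at 0.325 ± 0.035 and DIRAS3 at 0.18 ± 0 in control.

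**Figure D1:**
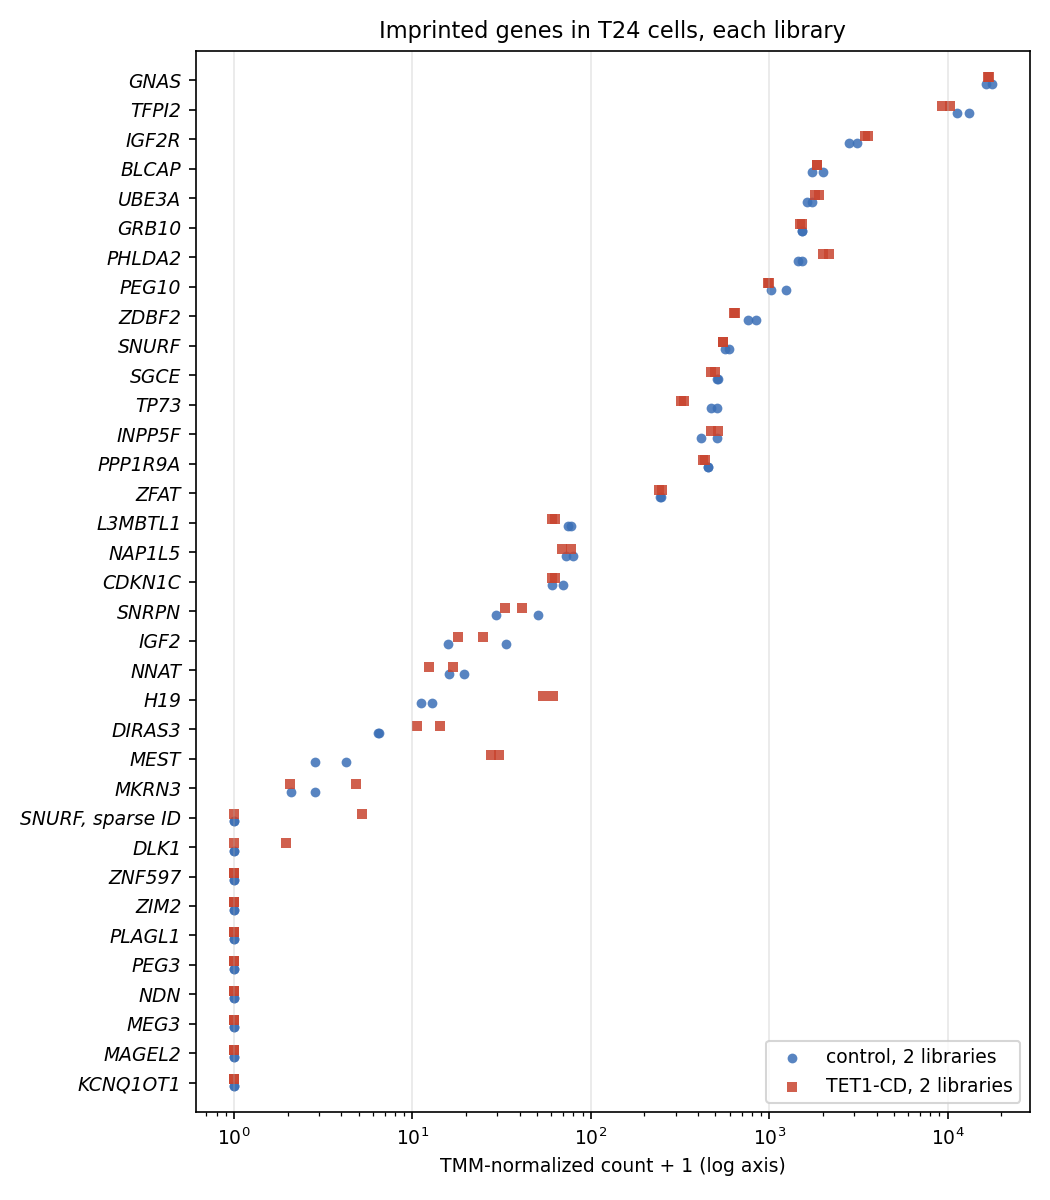
Normalised counts of the 35 imprinted gene identifiers in T24 cells, on a log axis after adding 1 to each value. Circles are the 2 control libraries and squares the 2 TET1-CD libraries; H19 and MEST stand to the right in TET1-CD, and 8 members are at 0 in all 4 libraries.

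Of the 12 genes that were not detected in control, 8 were at 0 in all 4 libraries. These were MEG3, a maternally expressed long non-coding RNA, KCNQ1OT1, the paternal antisense RNA of the KCNQ1 domain, the zinc finger genes PEG3, ZIM2, PLAGL1 and ZNF597, and NDN and MAGEL2, MAGE-family genes of the Prader-Willi region. A count of 0 allows up to 3 fragments in a library, and this limit covers counting error only. DLK1, a non-canonical Notch ligand, held 1 fragment in 1 TET1-CD library and 0 elsewhere. MKRN3, a ubiquitin ligase gene, read 2 and 1 counts in control and 1 and 4 in TET1-CD, and SNURF under its sparse identifier (ENSG00000214265) read 0 and 0 against 4 and 0. Neither came above the floor of 3 counts in both TET1-CD libraries, so no rise was detectable at this depth for these 11 genes. MEST was the exception among the 12.

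In the intervals from DLK1 to DIO3 and from ZIM2 to PEG3 no gene was above the floor of 3 counts, while the Prader-Willi and Angelman domain held silent and expressed genes. Of all 57879 genes listed, 56.5% were at 0 in all 4 libraries. Between DLK1 and DIO3 (chr14:101192042-102029789, GRCh37), 126 of the 128 genes listed were at 0 in all 4 libraries and none passed 3 counts in any library. The exceptions at 1 or 2 counts were DLK1 and RTL1, the retrotransposon-derived gene of this domain. The interval from ZIM2 to PEG3 (chr19:57285920-57352097) held 3 genes, all at 0 in every library. ZNF264, of the same domain but outside this interval, read 147 and 115 counts in control and 108 and 143 in TET1-CD. In the Prader-Willi and Angelman interval from MKRN3 to UBE3A (chr15:23810454-25684128), 94 of 106 genes were at 0 throughout and 9 passed 3 counts in at least 1 library. Of these genes 5 were tested and none of the 5 had an adjusted p under 0.05, beside 19.7% of all genes tested.

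Calls in the set were read beside the share over all genes tested. Of the 35 identifiers, 23 passed the filter on low counts and were tested, 22 of them detected in control and the other being MEST, which passed through its TET1-CD libraries. At an adjusted p under 0.05 and a fold of 2 or more, 2 members were called, H19 and MEST, both higher. MEST could enter the test only by being higher in TET1-CD, so its call adds no support to this count. The same call was met by 3.77% of all 14573 genes tested, 2.72% higher and 1.04% lower. With an adjusted p under 0.05 at any fold, 7 members were called, 4 higher and 3 lower, beside 19.7% of all genes (10.0% higher and 9.61% lower). The control and TET1-CD libraries did not overlap for 5 members that were higher and 9 that were lower in TET1-CD, beside 61.0% of all genes in either direction. Among the 22 detected and tested members, the median log2 fold change was -0.07, against 0.00 over all genes, with 5 values above 0 and 17 below. Of the 11 tested members that are expressed from the paternal copy where imprinted, 1 rose, 1 fell and 9 did not pass, and of the 7 expressed from the maternal copy, 2 rose, 2 fell and 3 did not pass.

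**Figure D2:**
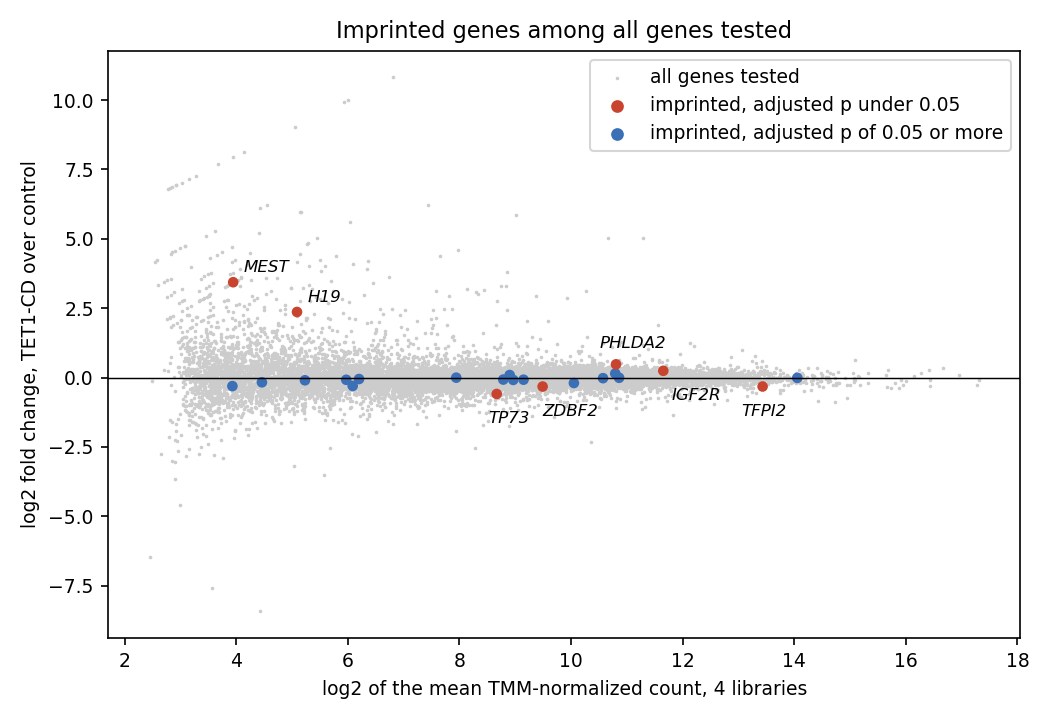
Log2 fold change of TET1-CD over control against the log2 mean normalised count of the 4 libraries, for 14573 genes in grey and 23 imprinted genes in colour. MEST (3.44) and H19 (2.36) lie at the low-count end, and the other imprinted genes lie within 0.6 of 0.

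H19, a maternally expressed long non-coding RNA next to IGF2 that also hosts a microRNA, had the second largest log2 fold change of the set. It lies at chr11:2016406-2022700 (GRCh37, minus strand). Control libraries read 11 and 11 counts and TET1-CD libraries 57 and 56, which is 11.01 ± 1.22 against 57.0 ± 5.18 normalised counts (SD, n = 2). The libraries did not overlap, and the log2 fold change was 2.36 (SE 0.31, edgeR adjusted p = 0.000808), a 5.15-fold higher level. The FPKM went from 0.325 ± 0.035 to 1.56 ± 0.134, so that H19 remained a low-abundance RNA in both lines. Transcript ENST00000414790 held 0 and 6 estimated fragments in control and 22.1 and 25.7 in TET1-CD, and ENST00000411754 held 11 and 4.13 against 16.9 and 29.9.

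MEST, a paternally expressed gene for an alpha/beta-hydrolase fold protein, had the largest log2 fold change of the set. It lies at chr7:130126012-130146133 (GRCh37, plus strand). Control libraries read 2 and 3 counts and TET1-CD libraries 28 and 28, with a log2 fold change of 3.44 (SE 0.53, edgeR adjusted p = 0.00193). Since the control level is at the floor, the size of the rise is imprecise. The ratio of the summed counts, 5 against 56, was 11.3 with a 95% counting interval of 4.57 to 36.2. This interval covers counting error only and not the spread between libraries. MEST has an upstream and a downstream start region, and the downstream one is the imprinted start of the main paternal transcript. The transcript at the downstream window, ENST00000223215, held 0 and 0 fragments in control and 28.0 and 27.0 in TET1-CD. The other 17 MEST transcripts together held 2 and 3.01 in control and 0.01 and 1.01 in TET1-CD. The fragments gained were thus assigned to ENST00000223215, while the few in control were spread over transcripts of both start regions. In control replicate 2, 2.33 fragments went to ENST00000393187. It begins at 130131170, nearer to the downstream start (130131926) than to the upstream one (130126016). A switch of start region was therefore not shown, and the split between overlapping transcripts was not tested. On FPKM, which divides by the length of each transcript, MEST went from 0.125 ± 0.007 to 0.63 ± 0.028, a log2 ratio of 1.70 with a pseudocount of 0.1. COPG2, whose 3′ end overlaps that of MEST on the other strand, had a log2 fold change of 0.18 (edgeR adjusted p = 0.274), and reads in the overlap cannot be told apart without strand.

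**Figure D3:**
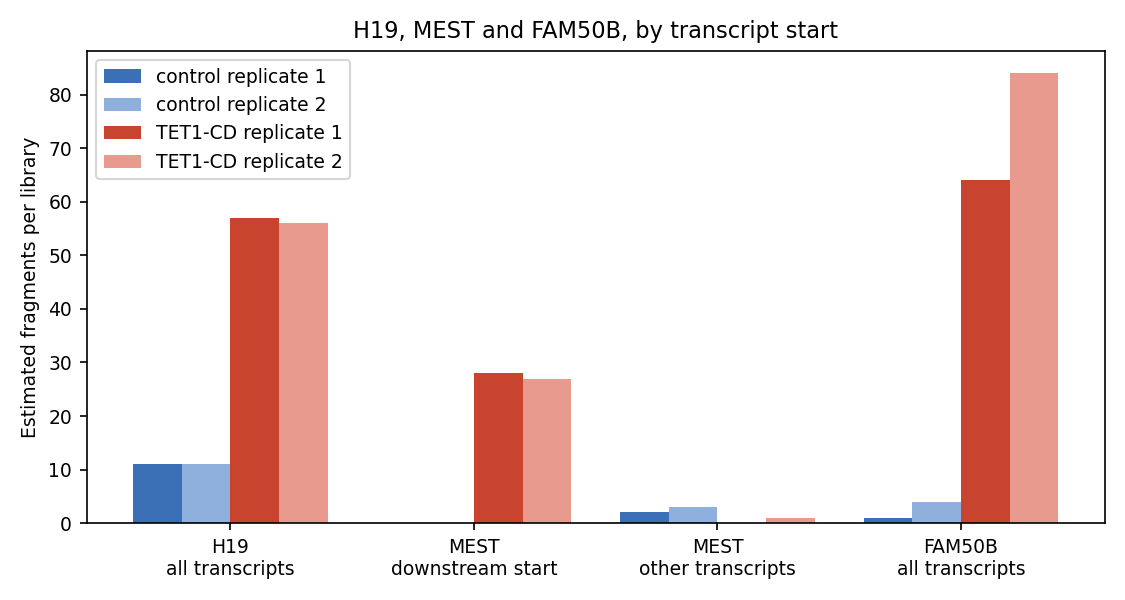
Estimated fragments in each of the 4 libraries for H19, the downstream MEST transcript, the other MEST transcripts and FAM50B. Bars start at 0 and stand for single libraries; the downstream MEST transcript is at 0 in both control libraries and at 28.0 and 27.0 in TET1-CD, while the other MEST transcripts stay at or below 3.01.

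Of the other members near H19 on chromosome 11, 1 rose, PHLDA2, and the rest did not pass the test or gave no fragment. IGF2, the paternally expressed growth factor gene that shares enhancers with H19, read 16 and 30 counts in control and 16 and 25 in TET1-CD, and the libraries overlapped (log2 fold change -0.17, SE 0.44, edgeR adjusted p = 0.826). The direction of IGF2 was not stable, since its value was 0.47 without control replicate 2 and 0.04 without TET1-CD replicate 1. CDKN1C, a cyclin-dependent kinase inhibitor expressed from the maternal copy, read 65 and 64 against 58 and 63 (log2 fold change -0.08, SE 0.20, adjusted p = 0.82). PHLDA2, the maternally expressed pleckstrin homology gene that restrains placental growth, rose modestly, from 1580 and 1423 counts to 2036 and 2098. Its libraries did not overlap, at 1497 ± 54.9 against 2083 ± 119 normalised counts (SD, n = 2), with a log2 fold change of 0.48 (SE 0.06, edgeR adjusted p = 0.000814). KCNQ1OT1 gave no fragment in any library. In the whole interval from H19 to PHLDA2 (chr11:2016406-2950685), 9 of the 29 genes listed were tested and 2 had an adjusted p under 0.05, H19 and PHLDA2. The share over all genes tested was 19.7%.

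IGF2R, which carries mannose 6-phosphate enzymes to lysosomes and clears IGF2 from the cell surface, is imprinted variably in humans. It read 3356 and 2593 counts in control and 3343 and 3596 in TET1-CD, or 2947 ± 211 against 3491 ± 93.8 normalised counts (SD, n = 2). The libraries separated only after normalisation, and the log2 fold change was 0.24 (SE 0.06, edgeR adjusted p = 0.0223). When any 1 library was left out, the value was 0.17 to 0.31. With 1 library left in a group, the spread comes from the other group alone, so no p-value is given for such fits.

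TP73, ZDBF2 and TFPI2 fell in TET1-CD, none of them by a factor of 2. TP73, a p53-family transcription factor gene reported to be expressed from the maternal copy, lies at chr1:3569084-3652765 and read 551 and 434 counts in control and 311 and 334 in TET1-CD. Its libraries did not overlap, at 488 ± 28.4 against 325 ± 9.09 normalised counts (SD, n = 2), with a log2 fold change of -0.59 (SE 0.09, edgeR adjusted p = 0.00212), which is 1.51-fold lower. Transcript ENST00000378295 held 81.1% to 90.0% of the TP73 fragments in the 4 libraries. ZDBF2, a paternally expressed zinc finger gene at chr2:207139387-207179148, read 910 and 703 against 594 and 678 counts, with a log2 fold change of -0.32 (SE 0.08, edgeR adjusted p = 0.0173). TFPI2, a secreted Kunitz-type inhibitor of serine proteases at chr7:93514709-93520303, read 12295 and 12261 against 9732 and 9759 counts, with a log2 fold change of -0.32 (SE 0.08, edgeR adjusted p = 0.0186). For both genes the control libraries lay above the TET1-CD libraries. When any 1 library was left out, the value was -0.40 to -0.25 for ZDBF2 and -0.44 to -0.21 for TFPI2. With DESeq2 the adjusted p of ZDBF2 was 0.0535.

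**Figure D4:**
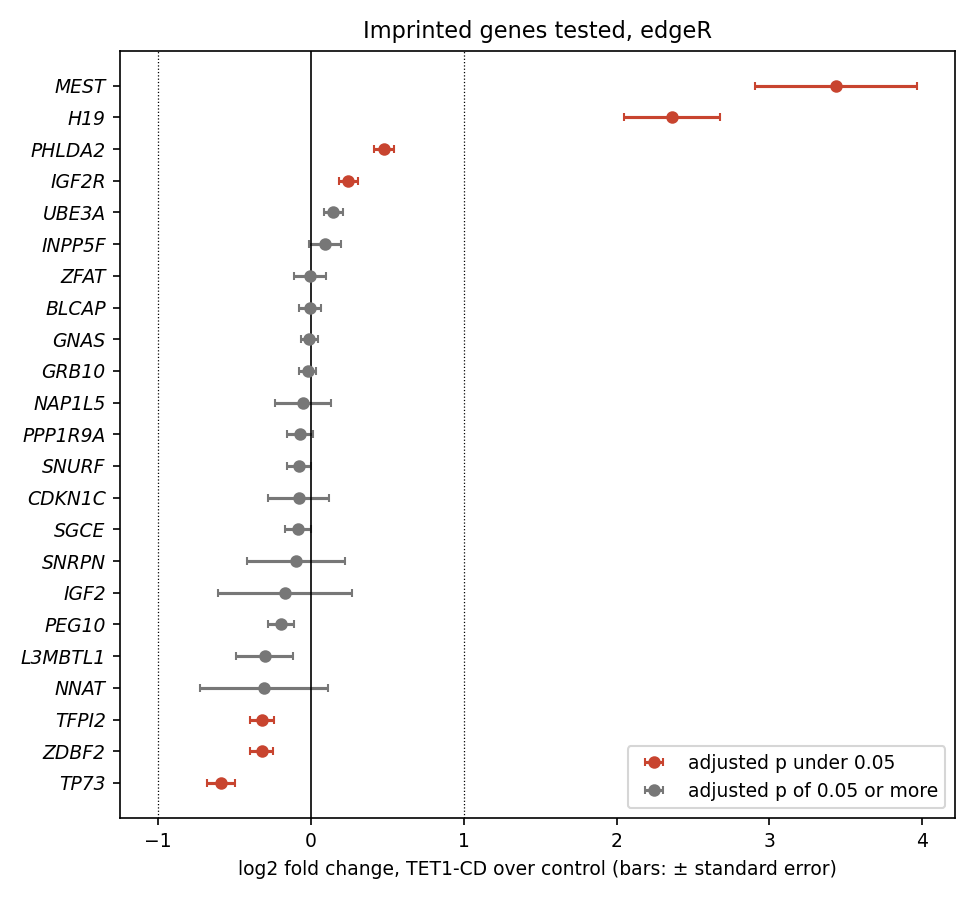
Log2 fold change of TET1-CD over control from edgeR for the 23 imprinted genes tested, with bars of 1 standard error; dotted lines mark a 2-fold change. MEST and H19 lie beyond the line, PHLDA2 and IGF2R are higher and TFPI2, ZDBF2 and TP73 lower within it, and the other 16 genes had an adjusted p of 0.05 or more.

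The other members in the domain of TFPI2 on chromosome 7 did not pass the test. PEG10, a paternally expressed retrotransposon-derived gene, read 1340 and 952 counts in control and 933 and 1035 in TET1-CD (log2 fold change -0.20, SE 0.08, edgeR adjusted p = 0.134). The value was -0.06 without control replicate 1 and -0.32 without control replicate 2. SGCE, the epsilon-sarcoglycan gene that starts next to PEG10 on the other strand, read 555 and 478 against 442 and 523 (log2 fold change -0.09, adjusted p = 0.524). PPP1R9A, which encodes the actin-binding protein neurabin, read 491 and 418 against 410 and 445 (log2 fold change -0.07, adjusted p = 0.602). All 4 members between TFPI2 and PPP1R9A had negative values, as did 7259 of the 14573 genes tested, and 1 of the 4, TFPI2, passed the test. Of all genes tested, 19.7% had an edgeR adjusted p under 0.05. In the whole interval (chr7:93514709-94925727), 8 of the 24 genes listed were tested and 3 had an adjusted p under 0.05. Beside TFPI2 these were BET1, a vesicle transport gene (log2 fold change -0.43, SE 0.09, edgeR adjusted p = 0.00869), and the gene listed as AC003092.1 (-0.35, SE 0.11, adjusted p = 0.0448).

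In the Prader-Willi and Angelman region none of the expressed members passed the test. UBE3A, the ubiquitin ligase gene lost in Angelman syndrome, which is imprinted in neurons, read 1890 and 1502 counts in control and 1796 and 1907 in TET1-CD (log2 fold change 0.15, SE 0.06, edgeR adjusted p = 0.128). Its value was 0.19 without control replicate 1 and 0.09 without control replicate 2. SNURF and SNRPN share 1 bicistronic transcript, so the split of reads between them is uncertain. SNURF (ENSG00000273173) read 648 and 525 against 520 and 579 (log2 fold change -0.08, adjusted p = 0.549), and SNRPN read 31 and 46 against 30 and 42 (log2 fold change -0.10, adjusted p = 0.868). Their counts summed were 679 and 571 in control and 554 and 621 in TET1-CD, a log2 ratio of -0.07. SNHG14, the long host RNA downstream that runs opposite to UBE3A, had a log2 fold change of 0.24 (adjusted p = 0.22).

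GNAS and GRB10 use starts with different parental expression, so their transcripts were examined as well as their totals. GNAS read 17857 and 16389 counts in control and 15722 and 18012 in TET1-CD (log2 fold change -0.01, SE 0.06, edgeR adjusted p = 0.913). The use of the imprinted upstream starts for NESP55 and XL-alpha-s could not be settled. The 17 GNAS transcripts listed with a span of more than 50 kb held 0 and 0 fragments in control and 3 and 0 in TET1-CD, but ENST00000306090, with 41.4% to 46.1% of GNAS fragments in the 4 libraries, has a shorter span in the files and an upstream start in GENCODE release 44. The 13 transcripts that begin in the imprinted exon A/B region held 20.02% and 29.99% of GNAS fragments in control and 21.1% and 22.6% in TET1-CD, and the 2 control libraries enclosed the TET1-CD values. GRB10, an adaptor that binds insulin and growth factor receptors, read 1664 and 1421 against 1440 and 1565 (log2 fold change -0.02, adjusted p = 0.829). Within GRB10, ENST00000439599 held 446 and 578 estimated fragments in control and 3.68 and 20.6 in TET1-CD, while ENST00000398812 held 512 and 291 against 877 and 733. ENST00000398810 held 489 and 170 against 226 and 479, and its libraries overlapped. GRB10 has 24 transcripts listed, and the share of transcripts whose libraries do not overlap was not counted. Estimates for overlapping transcripts of 1 gene depend on each other and were not tested. No start was known for ENST00000439599, so the use of starts in GRB10 could not be read from these values.

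The remaining tested members did not pass the test either. BLCAP, a small membrane protein gene, read 1870 and 1859 counts in control and 1745 and 1942 in TET1-CD (log2 fold change -0.01, edgeR adjusted p = 0.954), and NNAT, a neuronal proteolipid gene inside a BLCAP intron, read 20 and 14 against 15 and 12 (-0.31, SE 0.42, adjusted p = 0.66). L3MBTL1, a reader of methylated histones, read 83 and 68 against 58 and 63 (-0.30, adjusted p = 0.294). INPP5F, an inositol phosphatase gene, read 550 and 386 against 445 and 538 (0.09, adjusted p = 0.601), and the zinc finger gene ZFAT read 268 and 227 against 236 and 252 (0.00, adjusted p = 0.983). NAP1L5, an intronless gene within HERC3, read 85 and 66 against 64 and 80 (-0.05, adjusted p = 0.877), and HERC3 itself had a value of -0.14 (adjusted p = 0.226). DIRAS3, a Ras-related growth suppressor gene, read 6 and 5 counts in control and 9 and 14 in TET1-CD and was removed by the filter on low counts. The ratio of its summed counts, 11 against 23, was 2.11 with a 95% counting interval of 0.989 to 4.801, and without the filter its adjusted p was 0.384.

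A list of further imprinted genes or genes of the same domains was read beside the set. Of its 66 gene identifiers, 27 were tested, 2 were called higher and 1 lower at the 2-fold threshold, beside 3.77% of all genes, and the median log2 fold change was -0.04. At any fold 6 had an adjusted p under 0.05, 3 higher and 3 lower, beside 19.7% of all genes. FAM50B, a paternally expressed retrogene at chr6:3849620-3851551, read 1 and 4 counts in control and 64 and 84 in TET1-CD. Its log2 fold change was 4.83 (SE 0.45, edgeR adjusted p = 8.64e-05), and the ratio of summed counts, 5 against 148, was 29.9 with a 95% counting interval of 12.5 to 93.5. FAM50B passed the filter through its TET1-CD libraries, and its log2 fold change was 4.06 without control replicate 1 and 6.15 without control replicate 2. FAM50B thus went from near the floor to a measured level, as MEST did, and the intervals of their ratios overlapped. DGCR6, a gene of the DiGeorge region, read 14 and 10 against 29 and 29 (log2 fold change 1.28, SE 0.37, edgeR adjusted p = 0.0362). Its value was 1.17 to 1.42 when any 1 library was left out, and its adjusted p was 0.193 with DESeq2. LPAR6, a lysophosphatidic acid receptor gene inside an intron of the imprinted gene RB1, fell from 67 and 58 to 28 and 26 counts. Its log2 fold change was -1.19 (SE 0.25, edgeR adjusted p = 0.00943), and -1.32 to -1.06 when any 1 library was left out. RB1, on the other strand, had a log2 fold change of -0.07 (adjusted p = 0.589). CPA4, a carboxypeptidase gene near MEST, rose by a smaller factor (log2 fold change 0.73, SE 0.08, edgeR adjusted p = 0.000339).

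Factors that maintain imprints or act on DNA methylation moved by less than 2-fold where they passed the test. Of 14 such factors listed, 10 were tested and 3 had an adjusted p under 0.05, against 19.7% of all genes. DNMT1, the maintenance methyltransferase, was higher with a log2 fold change of 0.27 (SE 0.08, edgeR adjusted p = 0.0392). UHRF1, which brings DNMT1 to hemimethylated DNA, was higher by 0.23 (SE 0.07, edgeR adjusted p = 0.0474). DNMT1 read 2779 and 1983 counts in control and 2673 and 2958 in TET1-CD, and UHRF1 2296 and 1706 against 2237 and 2385. For both genes the libraries separated only after normalisation. TET2 fell (log2 fold change -0.36, SE 0.09, adjusted p = 0.0216). TRIM28, the corepressor bound by ZFP57, had a value of 0.11 (adjusted p = 0.169), and ZNF445, another imprint-binding zinc finger protein, -0.19 (adjusted p = 0.0963). ZFP57 itself held 0 counts in 3 libraries and 1 in TET1-CD replicate 2, and DNMT3L held 0 in all 4.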

How the data were processed

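The authors sequenced RNA from 2 EV control and 2 TET1-CD libraries of T24 cells. For each transcript the authors deposited an estimated count of fragments, which need not be whole, and an FPKM value. The submitters' processing notes name cutadapt 1.9.1, HISAT2 2.0.1, HTSeq 0.6.1, DESeq2 and hg19, but the program that gave non-whole counts and the strand setting are not given in the sources used here. Counts of 195700 transcripts were summed per gene and rounded, and FPKM was summed per gene. TET1-CD was compared with control by edgeR 4.0.16 in R 4.3.3 (quasi-likelihood test, TMM, filterByExpr) with Benjamini-Hochberg adjustment over 14573 genes. Normalised counts were scaled to the mean TMM-adjusted library size, and SE is log2 fold change over the root of F. Ratios of summed counts carry exact 95% binomial intervals for counting error only.

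The members and lists were chosen with earlier results of these data known. Named in full were members with an adjusted p under 0.05, members absent in control that passed 3 counts in TET1-CD, well-expressed others, called genes and hosts from the further list, and maintenance factors with an adjusted p under 0.05. CPA4 and the sequences shown were picked after their values were seen. RefSeq windows were found for 23 of 33 member symbols outside chromosome 8. DESeq2 1.42.0, limma-voom 3.58.1, other normalisations, filters, thresholds, a replicate block and leaving out each library were tried. The main edgeR fit, DESeq2 and limma-voom were tested on simulated data, and the other settings were not. Deviations from the group means correlated at 0.00134 between libraries with the same number, so the numbers were not taken to pair the samples.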

Additional observations from a re-analysis of the deposited data

How the results depend on the processing

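H19, PHLDA2, TP73, TFPI2 and IGF2R kept an adjusted p under 0.05 in each setting that was tested with all libraries. MEST did so where it was tested, but it entered the test only through its TET1-CD libraries, so its calls are no support. Requiring 10 counts in every library removed MEST and FAM50B, leaving 1 imprinted gene called in place of 2, and 332 in place of 549 among all genes. Without a fold threshold the counts were 7 of the set, 6 of those detected in control, 6 of the further list and 2865 of all genes. Leaving out a library gave 322 to 617 calls among all genes (322 without TET1-CD replicate 1, 364 without TET1-CD replicate 2), 2 in the set and 1 to 2 in the further list (1 without TET1-CD replicate 2), and a median log2 fold change of the detected members of -0.0685 to -0.0252. That median was -0.0252 without control replicate 2 and -0.0353 without TET1-CD replicate 1, against -0.0745 with all libraries. DESeq2 called 384 genes.

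Members with values near 0 changed sign when a library was left out, with ranges of -0.66 to 0.47 for IGF2, -0.46 to 0.33 for SNRPN, -0.19 to 0.0184 for CDKN1C, -0.12 to 0.10 for BLCAP, -0.0685 to 0.0382 for GNAS, -0.14 to 0.0247 for NAP1L5, -0.0427 to 0.24 for INPP5F and -0.04 to 0.0303 for ZFAT. With library size only, BLCAP, GNAS and ZFAT were at 0.0042, 0.0007 and 0.0079. None of these had an adjusted p under 0.05 in the fit with all libraries, and the cause was not tested. On FPKM the log2 ratios were 1.96 for H19, 1.70 for MEST and 3.72 for FAM50B.

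A fit with a replicate block called 568 genes, 2 in the set and 3 in the further list, H19 was at 2.37 and MEST at 3.44, and no call of a member changed. The correlation behind the pairing was 0.0504 over the 7286 genes above the median level. With a limit of 10 counts, 13 members were not detected in control, and with a limit of 0 counts, 10. Only 2 libraries a group, and 5 summed control counts for MEST and FAM50B, limit the precision of the largest values.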

Other observations

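Among genes of the further imprinted list that the filter removed, low counts in TET1-CD appeared for NTM, a cell adhesion gene, which read 2 and 1 counts in control and 6 and 20 in TET1-CD. The ratio of its summed counts, 3 against 26, was 8.76 with a 95% counting interval of 2.68 to 45.2. SLC22A18AS, which overlaps the transporter gene SLC22A18 on the other strand, read 3 and 0 against 3 and 10, a ratio of 4.38 with an interval of 1.20 to 23.96, while SLC22A18 itself had a log2 fold change of -0.27 (SE 0.14, edgeR adjusted p = 0.225). NPAP1, a Prader-Willi region gene, read 0 and 0 against 1 and 4. In the other direction, CALCR, the calcitonin receptor gene, read 4 and 3 counts in control and 0 and 0 in TET1-CD, and PON1, a paraoxonase gene, read 6 and 0 against 0 and 1. These genes were chosen after their values were seen and were not tested.

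The 54 RefSeq windows of 23 members had a median of 18 CG dinucleotides, and 22 of them, or 40.7%, held TGCCGC on either strand, beside 16.7% of all windows. Several windows of a gene overlap, so they are not independent, and SNRPN and SNURF share a window that was counted for both. The hexamer holds a CG, and the median over all windows was 14 CG dinucleotides. The 2 shares are therefore not matched for CG content, and no enrichment was tested.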
